A study of Mus musculus with 6 samples.

Results

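Nmrk2 and the genes of NAD synthesis and use were followed across 6 mouse heart arrays. The group holds 9 genes of the 19057 genes named on the array, namely Nmrk2, which is also written Itgb1bp3, and Nmrk1, Nampt, Nmnat1, Nmnat3, Nadk, Nnt, Sirt1 and Sirt3. Every probe annotated to them was taken, 21 of 45281 probes. Nmrk2 was selected on its measured values, which were high after pressure overload and in the transgenic sham heart, so its own differences are given as a description, with no test. The other 8 members were chosen for their function, with earlier results of these data known.

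The hearts came from FVB mice, 8 weeks old in the labels, that carried either no transgene or a heart-specific transgene for JMJD2A, the product of Kdm4a, which removes methyl groups from histone lysines. The animals had sham surgery or thoracic aortic constriction (TAC), in which a narrowed aorta raises the pressure the left ventricle works against, and hearts were harvested 3 weeks later. Each sham group, wild-type or JMJD2A-transgenic, is 1 array, and each TAC group is 2 arrays. The series' design text states the age in years instead of weeks. The sources used here do not give the promoter of the transgene, the number of founder lines, or whether the RNA on an array was pooled from several animals. The p-values therefore measure only the spread between these samples, which may be technical.

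NAD is the carrier of electrons in fuel oxidation and the substrate that sirtuins and poly(ADP-ribose) polymerases consume, so cells must keep rebuilding it. The main salvage enzyme, Nampt, joins nicotinamide to a ribose phosphate donor to give nicotinamide mononucleotide (NMN). Nmrk1 and Nmrk2 make the same NMN by phosphorylating nicotinamide riboside, and Nmnat enzymes then turn NMN into NAD. Nmrk1 is expressed widely, whereas Nmrk2 belongs to striated muscle and is known to be induced in failing and energy-stressed hearts.

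The 2 kinases are the members whose start sites are shown, because they carry out the same step and only Nmrk2 was chosen for its pattern. The sequences are the 250 bases before the RefSeq start site in mouse build GRCm38.p6, written 5′ to 3′ along the gene, with capitals for the letters TATAAA and for E-boxes (CANNTG). The Nmrk2 window is chr10:81202038-81202287 on the minus strand and lies partly inside the annotated gene, whose span begins further upstream. The Nmrk1 window is chr19:18631766-18632015 on the plus strand.
Nmrk2: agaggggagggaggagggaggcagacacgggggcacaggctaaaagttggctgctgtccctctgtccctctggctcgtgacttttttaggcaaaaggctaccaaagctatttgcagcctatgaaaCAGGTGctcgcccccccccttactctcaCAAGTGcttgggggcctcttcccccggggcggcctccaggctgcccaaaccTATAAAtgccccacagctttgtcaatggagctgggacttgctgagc
Nmrk1: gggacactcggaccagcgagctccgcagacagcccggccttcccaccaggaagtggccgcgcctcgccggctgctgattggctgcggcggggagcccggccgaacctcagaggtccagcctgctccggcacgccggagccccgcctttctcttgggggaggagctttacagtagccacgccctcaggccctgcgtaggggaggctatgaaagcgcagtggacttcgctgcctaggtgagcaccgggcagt

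The Nmrk2 window holds TATAAA once, 46 to 41 bases before the start site, and 2 E-boxes, CAGGTG and CAAGTG. The Nmrk1 window holds neither motif. Both strands were searched. Of 32851 windows of 250 bases in the table, 12.4% hold TATAAA and 66.2% hold an E-box. The AP-1 site TGANTCA, the nuclear receptor motif AGGTCA, the CArG box and the MEF2 site are in neither window, and are found in 6.75%, 14%, 1.47% and 2.92% of all windows. The GC content is 58.8% for Nmrk2 and 69.2% for Nmrk1. These matches are a description of the letters and do not show binding.

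Across all probes, pairs of arrays correlated at 0.984 to 0.994 on the log2 scale. Array medians were 56.3 to 56.4, so a probe near 56 carries little signal above the background and a fold there understates the change. Of the 3 Kdm4a probes none separated transgenic from wild-type arrays: the probe with the largest spread read 84.5 to 90.1 in wild type and 80.0 to 131 in transgenic hearts. Where these probes lie relative to the transgene is unknown here, so they do not check the genotype labels. Xist, the RNA that coats the inactive X in females, stood at log2 5.38 in wild-type TAC 2 and 5.41 in transgenic sham, against 10.36 to 11.03 elsewhere. No sex is labelled, and sex therefore cannot be told apart from the groups wherever these 2 arrays decide a value.

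Nmrk2 had the widest range of the 9 members. Its brightest probe read an intensity of 475 in wild-type sham, 3165 and 1980 in wild-type TAC, 3734 in transgenic sham, and 5474 and 5375 in transgenic TAC. Wild-type sham stood apart below the other 5 arrays, and transgenic sham lay above both wild-type TAC arrays. The order of the groups was wild-type sham, wild-type TAC, transgenic sham, transgenic TAC. The last 3 are separated by less than the first step, and the wild-type TAC arrays differed from each other with an SD of 0.48 on the log2 scale (n = 2), against 0.02 for the transgenic TAC arrays (n = 2).

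In wild type, Nmrk2 was 5.27-fold higher after TAC than in sham (log2 difference 2.40). In transgenic hearts the TAC arrays were 1.45-fold above sham (log2 difference 0.54). The sham arrays, 1 against 1, differed 7.86-fold (log2 difference 2.97). In that pair 1.04% of the 11167 tested genes differed by at least log2 1, and nothing is read from this share because Nmrk2 was selected on this pair. Between genotypes after TAC the difference was 2.17-fold (log2 1.12). The single wild-type sham array enters both of the large differences. Over both genotypes the TAC difference was 1.47 on the log2 scale. Without wild-type sham only the transgenic arrays decide it, which gives their 0.54 again. With the array's Xist level as a covariate, the TAC difference in transgenic hearts turned to -0.14. Xist was low in transgenic sham and high in both transgenic TAC arrays, so it cannot be told apart from surgery there. The slope on Xist comes almost only from the wild-type TAC arrays, and the -0.14 carries their gap over to transgenic hearts.

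The other Nmrk2 probes did not all repeat this pattern. ILMN_2727022 read intensities of 111 in wild-type sham, 439 and 365 in wild-type TAC, 749 in transgenic sham and 829 and 914 in transgenic TAC, the same order of groups. Its log2 differences were 1.85 for TAC in wild type, 0.22 for TAC in transgenic hearts and 2.76 for the sham pair. ILMN_1244715 went the other way, with 225 in wild-type sham, 162 and 212 in wild-type TAC, 162 in transgenic sham and 87.4 and 138 in transgenic TAC. All 3 probes are annotated to the same RefSeq transcript, and all lie above the intensity filter. Over the 6 arrays, the brightest probe correlated at r = 0.99 with the former and at r = -0.77 with the latter. The annotation used here does not say which part of the transcript each probe reads.

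**Figure D1:**
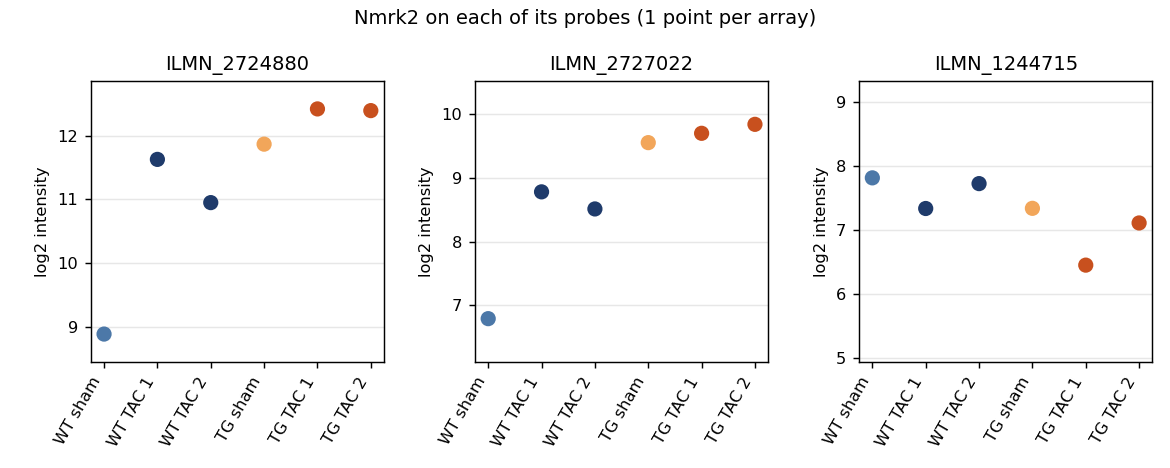
Log2 intensity of the 3 Nmrk2 probes on each of the 6 arrays, 1 point per array, with the same span of log2 units on each vertical axis (WT, wild type; TG, JMJD2A-transgenic). The points of ILMN_2724880 and ILMN_2727022 start low in wild-type sham (8.89 and 6.79) and are highest in transgenic TAC, while ILMN_1244715 is highest in wild-type sham (7.82).

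None of the other 8 members passed the test in any of the 6 comparisons made (limma, Benjamini-Hochberg adjustment over all 11167 tested genes, threshold 0.05). The share of all genes that passed was 0.00895% for TAC against sham over both genotypes and 0.949% for genotype over both surgeries. It was 0.206% for transgenic against wild type after TAC, and 0% for TAC in wild type, TAC in transgenic hearts and the difference of the TAC responses. An unadjusted p under 0.05 was reached by 1 of the 8 members for TAC over both genotypes, by 2 between genotypes over both surgeries, by 1 between genotypes after TAC, and by 0 in the other 3 comparisons. Over all genes the share with an unadjusted p under 0.05 was 9.26%, 11.5% and 5.76% in the first 3 of these and 1.64% to 4.86% in the others. With TAC over both genotypes, 7 of the 8 were lower, with a median log2 difference of -0.14 against -0.01 over all genes. Between genotypes 6 of 8 were lower in transgenic hearts, with a median of -0.14 against -0.01 over all genes.

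Nmrk1, the other riboside kinase, was near constant. It read 106 in wild-type sham, 100.3 and 100.9 in wild-type TAC, 97.4 in transgenic sham, and 85.4 and 101 in transgenic TAC. The groups overlapped in both genotype and surgery. Its log2 difference was -0.07 ± 0.12 (SE) for TAC over both genotypes (limma adjusted p = 0.900) and -0.11 ± 0.12 between genotypes (adjusted p = 0.771).

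Nampt, the rate-limiting salvage enzyme, split the arrays into a high and a low set that followed neither label. Its tested probe read 200.4 in wild-type sham, 128 and 211 in wild-type TAC, 218 in transgenic sham, and 122 and 140 in transgenic TAC. Wild-type TAC 2 lay with both sham arrays, and the other TAC arrays lay lower. TAC over both genotypes gave -0.51 ± 0.22 on the log2 scale, the largest difference of the 8 members in that comparison (adjusted p = 0.514), and the arrays overlapped. Leaving out single arrays moved this difference between -0.74 and -0.29, which are its values within transgenic and within wild-type hearts. Wild-type TAC 2 and transgenic sham, the 2 arrays of low Xist, were the highest for Nampt, and wild-type sham with high Xist stood close to them. The part of sex in this was not tested. The second Nampt probe read 42.6 to 52.7, below the array median.

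Nmnat1, the nuclear NMN adenylyltransferase, was lower in every transgenic array than in every wild-type array. It read 136 in wild-type sham, 127.4 and 126.6 in wild-type TAC, 117 in transgenic sham, and 107 and 95.0 in transgenic TAC. The log2 difference between genotypes was -0.29 ± 0.12 (limma adjusted p = 0.402), which did not pass. Its values were also lower in TAC than in sham within each genotype, at -0.10 in wild type and -0.21 in transgenic hearts on the log2 scale.

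Nmnat3, ascribed to mitochondria, was dim. Its tested probe read 73.2 in wild-type sham, 61.8 and 64.9 in wild-type TAC, 69.6 in transgenic sham, and 69.7 and 64.8 in transgenic TAC. The log2 difference was -0.13 ± 0.10 for TAC over both genotypes (adjusted p = 0.721) and 0.03 ± 0.09 between genotypes (adjusted p = 0.937). The second Nmnat3 probe read 40.2 to 55.8, below the array median.

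Nadk, the cytosolic kinase that makes NADP from NAD, was bright and was the only member of the 8 with a positive TAC difference over both genotypes. Its tested probe read 1071 in wild-type sham, 1235 and 1142 in wild-type TAC, 976 in transgenic sham, and 971 and 1402 in transgenic TAC. The transgenic TAC arrays held both the lowest and the highest value. TAC gave 0.20 ± 0.17 (adjusted p = 0.760) and genotype -0.06 ± 0.16 (adjusted p = 0.931). The second probe read 987 to 1316 with the same transgenic TAC arrays at its ends.

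Nnt, the transhydrogenase of the inner mitochondrial membrane that makes NADPH from NADH, had the largest difference between genotypes among the 8. The tested probe, which is annotated to a cDNA clone and not to a RefSeq transcript, read 412 in wild-type sham, 325 and 354 in wild-type TAC, 240 in transgenic sham, and 180 and 263 in transgenic TAC. All 3 transgenic arrays lay below all 3 wild-type arrays. The log2 difference was -0.69 ± 0.17 over both surgeries (1.61-fold lower, limma adjusted p = 0.137) and did not pass. Without transgenic TAC 2 it was -0.86 with an adjusted p of 0.0130, and without single arrays in general the adjusted p ran from 0.0130 to 0.771. After TAC alone the difference was -0.64 ± 0.24 (adjusted p = 0.769).

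The other 7 Nnt probes read much nearer to the background. Of these, 3 lay above the filter. ILMN_2743338, annotated to a RefSeq transcript, read 96.1 in wild-type sham, 71.1 and 81.4 in wild-type TAC, 75.1 in transgenic sham, and 71.2 and 74.1 in transgenic TAC, with overlapping genotypes. ILMN_1226968, also annotated to a RefSeq transcript, read 48.2 to 80.8, and both ends were transgenic TAC arrays. ILMN_1214693 read 60.9 to 66.2 in wild type and 57.3 to 60.5 in transgenic hearts, which did not overlap but lay close to the array median. A genotype difference of the size seen on the tested probe was not found on these 3 probes.

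The sirtuins remove acyl groups from proteins at the cost of NAD. Sirt1, the nuclear deacetylase, read 272 in wild-type sham, 274 and 252 in wild-type TAC, 323 in transgenic sham, and 328 and 273 in transgenic TAC. Transgenic TAC 2 lay within the wild-type values. The log2 difference was 0.21 ± 0.15 between genotypes (limma adjusted p = 0.658) and -0.08 ± 0.16 for TAC (adjusted p = 0.907).

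Sirt3, the main mitochondrial deacetylase, read 2192 in wild-type sham, 1792 and 2062 in wild-type TAC, 2130 in transgenic sham, and 1593 and 1718 in transgenic TAC. All 4 TAC arrays lay below both sham arrays, by a narrow margin for wild-type TAC 2. The log2 difference for TAC over both genotypes was -0.28 ± 0.13 (adjusted p = 0.553). Sirt3 was the only member of the 8 whose TAC and sham arrays did not overlap over both genotypes, and 16.5% of all tested genes did the same. Between genotypes 2 of the 8, Nmnat1 and Nnt, did not overlap, against 16.1% of all genes. In the smaller comparisons 6 of the 8 did not overlap for TAC in wild type (73.1% of all genes), 3 for TAC in transgenic hearts (61.1%) and 3 between genotypes after TAC (32.3%).

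**Figure D2:**
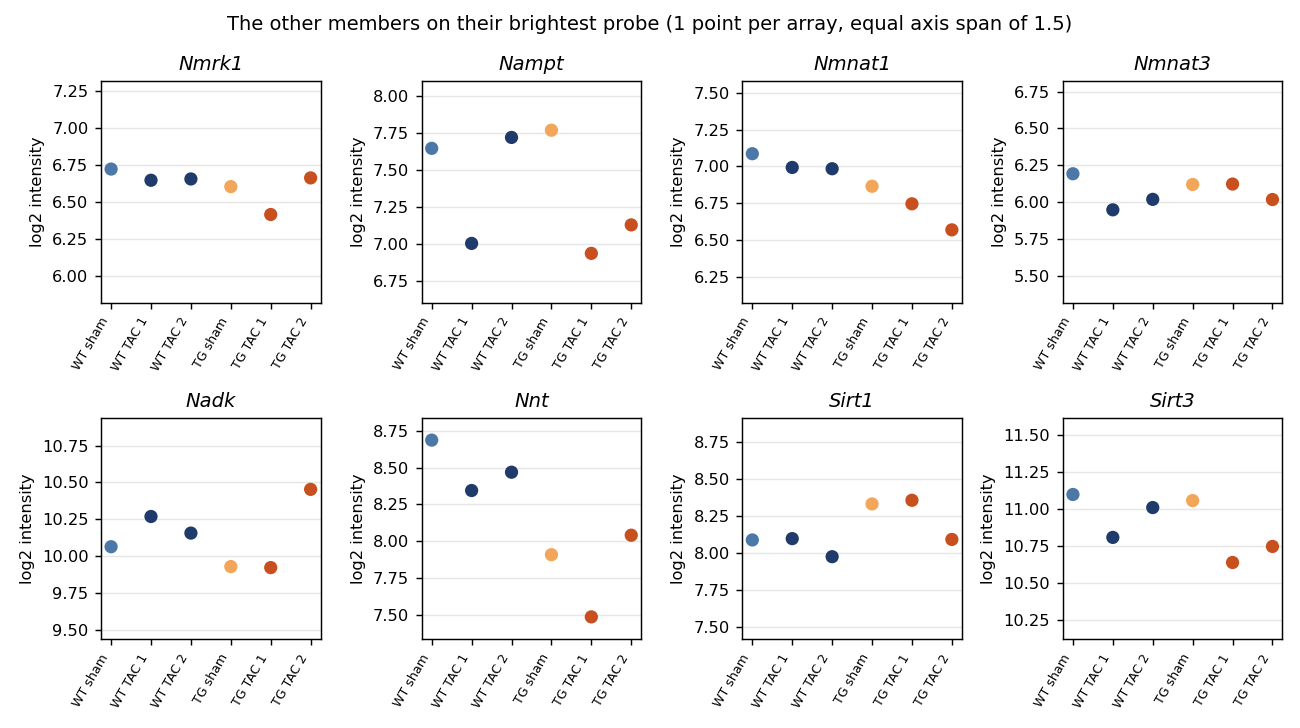
Log2 intensity of the tested probe of the other 8 members on each of the 6 arrays, 1 point per array, with the same span of 1.5 log2 units on every vertical axis (WT, wild type; TG, JMJD2A-transgenic). Nnt and Nmnat1 are lower in the 3 transgenic arrays, Sirt3 is lower in the 4 TAC arrays, and Nampt splits the arrays between 6.94 and 7.77 without following either label.

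The wider network was described with 8 lists of 93 genes, of which 89 were on the array and 72 were tested. None of the tested genes other than Nmrk2, for which no test is given, passed in any of the 6 comparisons. Without Nmrk2, 53 of the other 71 were lower with TAC over both genotypes and 18 higher, with a median log2 difference of -0.11, against -0.01 for all 11167 genes, of which 5745 were lower. Between genotypes 42 were lower in transgenic hearts and 29 higher, with a median of -0.06 that became -0.0077 without wild-type TAC 2. Leaving out transgenic TAC 2 brought the TAC median of all 71 to -0.07.

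The list of salvage and nicotinate routes had 13 tested members of 16. Without Nmrk2, which was selected on its rise, 6 of the other 12 were higher with TAC (median -0.01) and 5 were higher in transgenic hearts (median -0.10). With single arrays left out, these medians ran from -0.11 to 0.01 and from -0.18 to -0.04, the lowest and the highest without transgenic TAC 2 and transgenic TAC 1. Naprt, which starts the route from nicotinic acid, had the largest negative genotype difference of this list. It read 1617 in wild-type sham, 1406 and 1734 in wild-type TAC, 985 in transgenic sham, and 760.3 and 1001 in transgenic TAC. The 3 transgenic arrays lay below the 3 wild-type arrays, at -0.80 ± 0.15 on the log2 scale (1.74-fold lower), and limma's adjusted p of 0.0524 just missed the threshold.

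The genotype difference of Naprt was seen on each of its 3 probes, at -0.54, -0.80 and -0.87, without overlap on any of them. Its adjusted p was 0.0479 without the intensity filter and 0.0480 with robust fitting, and ran from 0.0125 to 0.354 when single arrays were left out. TAC moved it little, at -0.11 ± 0.16 (adjusted p = 0.873). Slc29a2, a nucleoside transporter, was at -0.23 ± 0.10 between genotypes (adjusted p = 0.397).

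Of the route from tryptophan, 2 of 9 genes were bright enough to test. Ido1, which opens the tryptophan ring, was at 0.27 ± 0.11 in transgenic against wild type (adjusted p = 0.376), and Afmid, the next enzyme, at -0.23 ± 0.13 (adjusted p = 0.563). The 7 other genes, Tdo2, Ido2, Kmo, Kynu, Haao, Acmsd and Qprt, stayed below the filter.

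Genes of NADP and nucleotide upkeep were lower with TAC in 6 of 7 (median -0.16, and -0.04 without transgenic TAC 2, -0.09 without wild-type sham or -0.10 without wild-type TAC 1). Besides Nnt and Nadk these include Nadk2, the mitochondrial NAD kinase, at -0.16 ± 0.10 (adjusted p = 0.678) and Naxe, which repairs damaged NADH and NADPH, at -0.16 ± 0.13 (adjusted p = 0.741). Of the NADPH supply genes 3 of 4 were lower (median -0.14, and -0.05 without transgenic TAC 2 or -0.22 without transgenic TAC 1). Idh2, the mitochondrial isocitrate dehydrogenase that makes NADPH, was at -0.48 ± 0.14 (adjusted p = 0.382), with no overlap between the 4 TAC and the 2 sham arrays.

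Among the 7 sirtuins, 6 were lower with TAC (median -0.08, and -0.05 without transgenic TAC 2 or -0.13 without transgenic TAC 1). Sirt5, a mitochondrial desuccinylase, read 904 in wild-type sham, 817 and 883 in wild-type TAC, 834 in transgenic sham, and 662 and 539 in transgenic TAC. Its genotype difference was -0.38 ± 0.15 (adjusted p = 0.390), and transgenic sham lay within the wild-type values. Sirt7, the nucleolar sirtuin, was the only one higher with TAC, at 0.23 ± 0.15 (adjusted p = 0.677).

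Other NAD consumers and nicotinamide clearance gave 18 tested genes of 23, with 10 lower with TAC and 12 lower in transgenic hearts. Parp4, the vault-associated ADP-ribosyltransferase, read 436 in wild-type sham, 403 and 448 in wild-type TAC, 851 in transgenic sham, and 639 and 693 in transgenic TAC. Every transgenic array lay above every wild-type array. The log2 difference was 0.75 ± 0.14 (1.68-fold, limma adjusted p = 0.0524), again just short of the threshold, with 0.0479 without the intensity trend, 0.0420 with robust fitting and 0.0262 to 0.551 when single arrays were left out. Its second probe read 42.6 to 46.6, below the array median, and showed no such difference. Parp1, the main DNA-damage polymerase, was at -0.30 ± 0.14 with TAC (adjusted p = 0.547), and Nnmt, which methylates nicotinamide for disposal, at 0.39 ± 0.19 (adjusted p = 0.569). For Nnmt the TAC difference was 0.06 within wild type and 0.72 within transgenic hearts, each against 1 sham array.

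The list of shuttles that carry NADH electrons into mitochondria also holds the lactate dehydrogenase genes Ldha and Ldhb. All 9 tested genes of this list were lower with TAC over both genotypes, with a median of -0.26. Mdh2, mitochondrial malate dehydrogenase, was at -0.35 ± 0.12 (adjusted p = 0.418) and Slc25a12, an aspartate-glutamate carrier, at -0.33 ± 0.13 (adjusted p = 0.502), both without overlap between TAC and sham. Mdh1, the cytosolic enzyme, was at -0.56 ± 0.28 (adjusted p = 0.569) with overlapping arrays. For Mdh1 the TAC difference was -0.24 within wild type and -0.88 within transgenic hearts. Over both genotypes it was -0.29 without transgenic TAC 2. Within wild type all 9 tested genes of the list were lower, and within transgenic hearts 7 of the 9.

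Of the factors known to regulate Nmrk2 or Nampt, 11 of 12 were lower with TAC (median -0.21), and 9 of 12 after cyclic loess normalization or without wild-type sham. Without transgenic TAC 2 it was also 9 of 12, with a median of -0.09. Over all 11167 tested genes 5745 were lower, with a median of -0.01. Srf (-0.0021) and Clock (-0.0023) are counted among the 11 but were almost unchanged. Ppargc1a, the mitochondrial coactivator PGC-1 alpha, was at -0.42 ± 0.18 (adjusted p = 0.536), and Esrra, its nuclear receptor partner, at -0.24 ± 0.13 (adjusted p = 0.603), both without overlap. The gamma subunits of the energy sensor AMPK, Prkag1 and Prkag2, were at -0.29 ± 0.13 (adjusted p = 0.546) and -0.30 ± 0.14 (adjusted p = 0.561). Another AMPK subunit gene, Prkab2, was the only gene of the list that was higher, at 0.25 ± 0.14 (limma adjusted p = 0.626). Between genotypes this list split evenly, 6 higher and 6 lower (median 0.02).

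**Figure D3:**
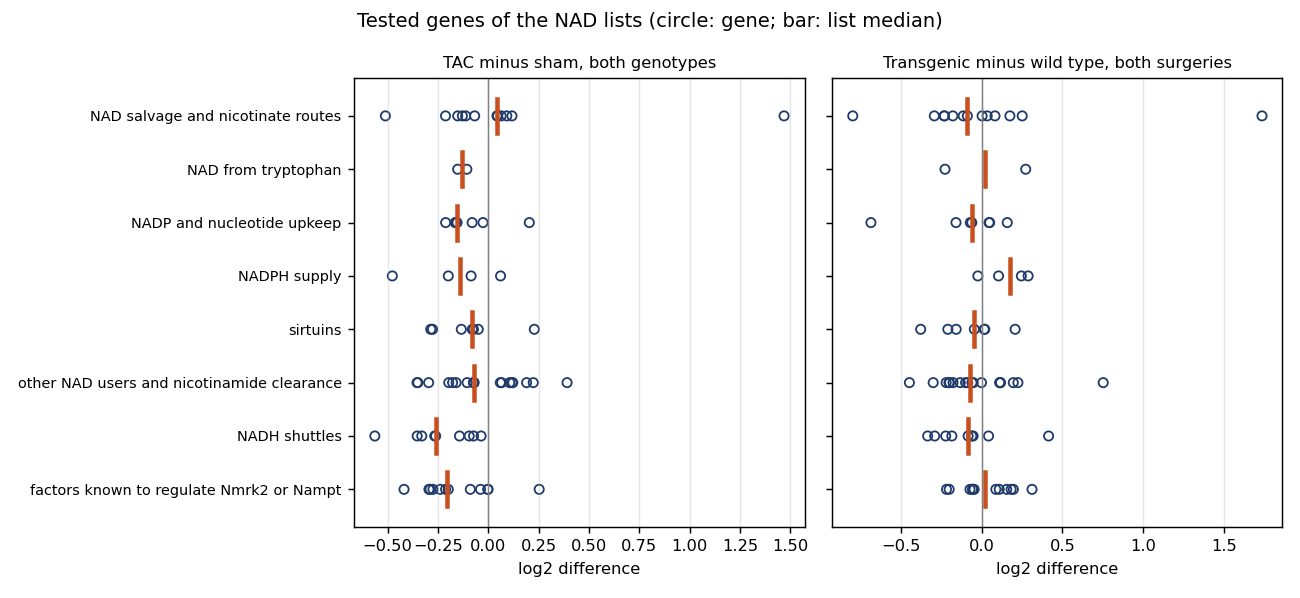
Log2 differences of the tested genes of each list, for TAC minus sham over both genotypes (left) and transgenic minus wild type over both surgeries (right), with 1 circle per gene and a bar at the list median. The circle far to the right in the salvage list is Nmrk2 (1.47 and 1.74), and the NADH shuttle circles all lie below 0 with TAC.

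Genes with the pattern most like that of the brightest Nmrk2 probe were sought by Pearson's r over the 6 arrays among 4894 tested genes with a log2 range of at least 0.5. The highest were Abca9 (r = 0.99), Cdv3 (0.98), Faap20 (0.98), the desmosomal gene Pkp2 (0.97), the interferon-inducible GTPase gene Ifi47 (0.97), the Fc receptor gene Fcgr3 (0.96), Abca8b (0.96), H2-DMb2 of class II antigen loading (0.96), the complement gene C1qc (0.96) and the ribosome assembly gene Rrp12 (0.96). The most opposite were the kinase genes Mok (-0.99) and Stk39 (-0.99), the RNase P subunit gene Pop5 (-0.99), the growth factor gene Epgn (-0.99) and Acad12 of the acyl-CoA dehydrogenase family (-0.99).

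These genes moved over far smaller ranges than Nmrk2. The widest of the 10 similar genes, Rrp12, spanned 1.05 on the log2 scale, and Pkp2 spanned 0.53. All 15 have their extreme value in wild-type sham, and 16 genes had r above 0.95 and 35 below -0.95. The genes share that single extreme point, and were picked on these same 6 arrays, so their order is a description only. Against the contrary probe ILMN_1244715 every r had the opposite sign, from -0.87 to -0.68 for the 10 similar genes and from 0.71 to 0.83 for the 5 opposite ones. With single arrays left out, r of Abca9 stayed between 0.95 and 1.00, while that of C1qc fell to 0.72. The weakest r of each gene then ran from 0.72 (C1qc) to 0.95 (Fcgr3) for the 10 similar genes. For the 5 opposite ones it ran from -0.93 (Acad12) to -0.97 (Pop5). Among the members r with Nmrk2 was -0.82 for Nnt, -0.79 for Nmnat1, -0.74 for Sirt3, -0.63 for Nmrk1, -0.56 for Nampt, -0.48 for Nmnat3, 0.15 for Nadk and 0.46 for Sirt1.

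**Figure D4:**
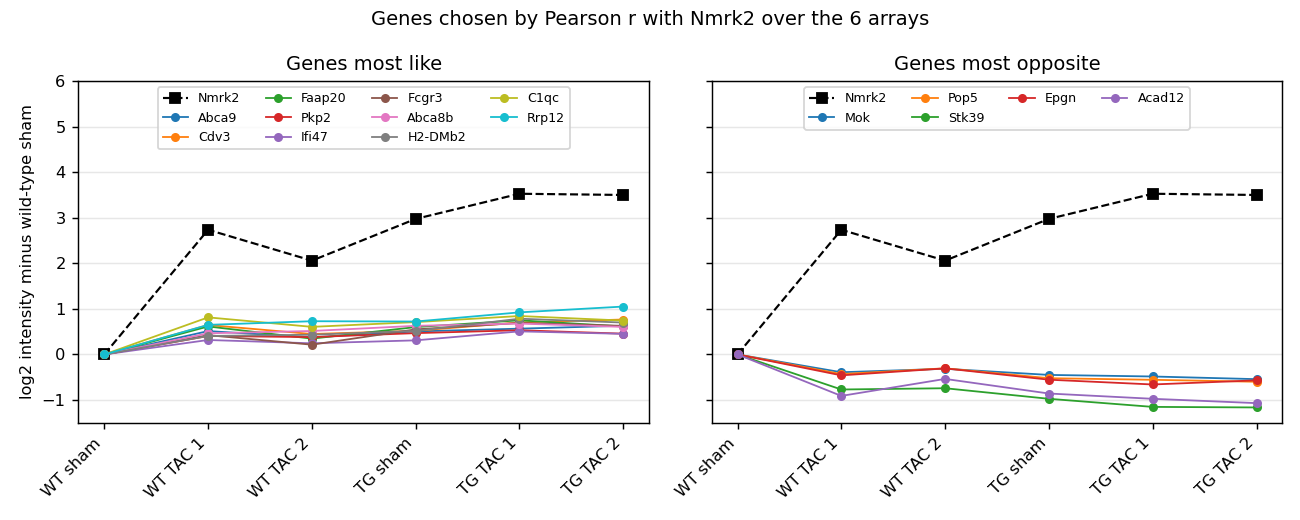
Log2 intensity minus that of wild-type sham on the 6 arrays for Nmrk2 (dashed) and the 10 genes most like it (left) and the 5 most opposite to it (right) by Pearson's r; lines join the arrays of a gene as a guide only. The similar genes rise by at most 1.05 where Nmrk2 rises by 3.53.

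Markers of the cell types that the samples could hold were read beside these values. Cardiac muscle genes had 7 of 8 markers on the array, all above the filter, with a summed intensity of 78531 to 85540, so each array holds heart muscle. Fast skeletal muscle, which also expresses Nmrk2, had 11 of 12 markers on the array and 6 above the filter. Its mean log2 intensity was 6.19 in wild-type sham and 6.15 to 6.23 on the other arrays, with 2 of 6 tested markers higher with TAC (median -0.03) and 2 of 6 higher in transgenic hearts (median -0.13). The summed intensity was 894 in wild-type sham and 964 to 1153 elsewhere, of which Mybpc2, the brightest marker, gave 191 and 275 to 528. Myh1 and Myh4, which define fast fibres, read 48.2 to 54.4 and 38.4 to 44.0, below the array median everywhere.

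Fibroblast markers, all 7 above the filter, had their lowest summed intensity in wild-type sham, at 16400 against 18028 to 25393 on the other arrays. Dcn gave most of this sum, with 12363 in wild-type sham. Singly, Col1a2 and Col3a1 were slightly lower in transgenic sham, and Tcf21 was lower in transgenic sham and wild-type TAC 2. All 7 were higher with TAC (median 0.28) and all 7 in transgenic hearts (median 0.17), and none passed. Macrophage markers had 5 of 6 on the array, all above the filter, and summed to 1486 in wild-type sham and to 1864 to 3293 on the other arrays. Lyz2 gave most of this, at 865 in wild-type sham and 1147 to 2630 elsewhere, while Csf1r and Cd163 were lowest in wild-type TAC 1. With TAC 3 of the 5 were higher (median 0.08), and in transgenic hearts all 5 (median 0.15), and none passed. The part of fibroblasts and macrophages in the values of Nmrk2 and of the genes most like it was not tested.

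Atrial markers varied most, with 5 of 6 on the array and a summed intensity of 842 in wild-type sham, 8979 and 1790 in wild-type TAC, 1300 in transgenic sham, and 1380 and 3824 in transgenic TAC. This sum was lowest in wild-type sham and highest in wild-type TAC 1. The brightest Nmrk2 probe was also lowest in wild-type sham, but was highest in transgenic TAC 1. Within wild-type TAC, both were higher in TAC 1 than in TAC 2. Over the 6 arrays, the mean log2 intensity of the atrial markers had r = 0.41 with Nmrk2. The part of atrial tissue in the values of Nmrk2 was not tested. The summed intensity of smooth muscle and pericyte markers was 12614 to 20850 in wild type and 5180 to 8325 in transgenic hearts. Much of it came from the smooth muscle actin gene Acta2, at 8246 to 15367 in wild type and 2701 to 3738 in transgenic hearts. None of the 5 tested markers was higher in transgenic hearts, and Acta2 was the 1 that passed as lower. Tagln did not overlap between genotypes either, but Myh11, Rgs5 and Pdgfrb did. Rgs5 read 2990 to 4371 in wild type and 1938 to 3912 in transgenic hearts. The part of smooth muscle and pericytes in the lower transgenic values of Nnt, Nmnat1 and Naprt was not tested. In whole hearts, fewer cells of a type and less RNA per cell cannot be told apart.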

How the data were processed

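Per the labels' protocols, biotinylated cRNA was hybridised to Illumina bead arrays. The deposited table gives linear intensity values, 1 for each probe on each of 6 arrays. The sorted columns differed by at most 0.0064 on the log2 scale, as after quantile normalization. The authors' software and background correction are unknown here.

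Here intensities under 32 (12 values) were raised to 32 before taking log2, with no further normalization. Symbols came from the platform annotation, updated by gene identifier: 34885 probes had 1 gene symbol, 18 several and 10378 none. A gene was represented by its brightest probe. Genes above the 50th percentile of mean log2 intensity (an intensity of 58.7) were tested, 11167 in all. All 9 members and 15 of their 21 probes passed.

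Tests came from limma 3.58.1 under R 4.3.3 (lmFit, then eBayes with a mean-intensity trend). A model of surgery plus genotype gave the comparisons over both genotypes and both surgeries (residual degrees of freedom 3, prior 6.14). A 4-group model (2 and 6.25) gave the others, where each lone sham array is assumed to vary like the TAC arrays. Errors are standard errors unless an SD is named. The sham pair has no test. The steps were tested on simulated data. Members and lists were chosen with earlier results of these data known. Of each list, up to 4 genes with the smallest p in each of the 2 comparisons over all arrays could be named, as could the 10 genes most like Nmrk2 and the 5 most opposite. Alternatives were the median over probes, other filters, background subtraction, cyclic loess, no trend, robust fitting, Xist as a covariate, a replicate block and leaving out arrays.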

Additional observations from a re-analysis of the deposited data

How the results depend on the processing

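The 8 members other than Nmrk2 gave 0 calls in each comparison under all alternatives run, except that 1 (Nnt) passed between genotypes over both surgeries without transgenic TAC 2, so that the count ran from 0 to 1 there.

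The Nmrk2 values moved more. With TAC over both genotypes (1.47) the log2 difference was 0.52 by the median over probes, 1.03 by ILMN_2727022 and -0.42 by ILMN_1244715. Without both low-Xist arrays it was 2.74, which is wild-type TAC 1 against wild-type sham alone. With single arrays left out it was 0.54 to 2.40. These ends are the differences within transgenic and within wild-type hearts, left when the other genotype has no sham array. Between genotypes over both surgeries (1.74) the difference was 1.33 by the median and -0.66 by ILMN_1244715. It was 0.78 without both low-Xist arrays, where only TAC arrays decide it, and 1.12 to 2.11 with single arrays left out. For TAC in wild type (2.40) it was 0.83 by the median, 1.85 by ILMN_2727022 and -0.29 by ILMN_1244715. For TAC in transgenic hearts (0.54) it was -0.14 with Xist and -0.56 by ILMN_1244715. Between genotypes after TAC (1.12) it was 0.76 with Xist and -0.75 by ILMN_1244715. Both values with Xist rest on a slope that comes almost only from the wild-type TAC arrays. For the sham pair (2.97) the difference was 1.73 by the median and -0.48 by ILMN_1244715. The cause was not tested.

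Small differences changed sign without a call on either side. Without both low-Xist arrays, Nampt was 0.029, Naxd 0.089 and Me3 0.074 between genotypes, and Sirt1 was 0.0089 and Me2 -0.14 with TAC. By the median over probes, Nadk was 0.000738, Slc25a11 0.00682 and Clock -0.028 between genotypes. With single arrays left out, the difference between genotypes ran from -0.34 to 0.069 for Nampt, -0.012 to 0.087 for Nmnat3, -0.22 to 0.079 for Nadk, -0.073 to 0.41 for Nudt13, -0.12 to 0.36 for Idh1 and -0.090 to 0.064 for Me3, and the TAC difference of Me2 from -0.078 to 0.20. Without a change of sign, single arrays moved the TAC difference between -0.65 and -0.30 for Idh2, -0.51 and -0.20 for Mdh2, -0.47 and -0.19 for Slc25a12, -0.56 and -0.28 for Ppargc1a, -0.48 and -0.11 for Prkag2 and -0.23 and -0.076 for Nadk2.

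By the TAC numbers of the titles, the arrays showed no shared deviation over all tested genes (r = -0.03 between the deviations of the genotypes). This r cannot exclude a pairing that acts on only some genes. With the TAC numbers as a replicate block, 61 genes in place of 23 passed between genotypes after TAC, with 0 of the 8 members other than Nmrk2 among them.

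Counts over all genes moved with the settings. Without both low-Xist arrays no transgenic sham is left, and of the wild-type TAC group only TAC 1. A count of 0 there cannot be told apart from the loss of arrays. With TAC over both genotypes the 1 call became 2 without the filter or at the 75th percentile, 0 without the trend, with Xist or without both low-Xist arrays, and 0 to 37 with single arrays left out. Between genotypes over both surgeries the 106 calls became 49 by the median over probes, 44 at the 75th percentile, 54 with Xist, 0 without both low-Xist arrays and 24 to 473 with single arrays left out. After TAC the 23 calls became 5 by the median over probes, 38 without the filter, 11 at the 75th percentile, 10 with cyclic loess and 8 without the trend, and 0 to 189 with single arrays left out. The 0 calls for TAC in wild type, TAC in transgenic hearts and the difference of responses became at most 11, 239 and 5.

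Nnt and Nmnat3 were below the filter by the median over probes, and Nmrk1, Nmnat1 and Nmnat3 were not tested at the 75th percentile, so those settings say nothing of them. Each sham group is 1 array, and only 6 arrays limit the precision.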
